A study of Mus musculus with 4 samples.

Results

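The EGF receptor family and its ligands were followed as 4 of the 328 genes on the panel: the receptors Egfr and Erbb3 and the ligands Areg (amphiregulin) and Tgfa (transforming growth factor alpha). The members were listed by name and no measured value enters that rule, although earlier results of these data were known when the list was made. Every member was detected on all 4 slides. Transcripts were counted in place by imaging (Xenium), on a slide of male unwounded dorsal skin, a slide of female unwounded dorsal skin, a slide of buccal mucosa and a slide of male dorsal skin 4 days after wounding, cut at 5 µm. Mice carried Krt5-rtTA and TRE-Pitx1, so that doxycycline switches on Pitx1 under a promoter active in basal keratinocytes. Control mice were littermates on normal chow, labelled as vehicle, and PITX1+ mice received doxycycline chow. The buccal mucosa came from Control mice. Control animals therefore carried the same transgenes, and the Krt5 promoter is active in the follicle and gland epithelium as well as in the epidermis.

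The labels name both conditions for each skin slide but not the condition of each piece of tissue. They also do not say whether pieces came from separate animals; the study's legend counts its PITX1+ samples as mice. Sections were therefore separated by gaps between cells and assigned by their order across the slide, which gave 3 Control, 4 PITX1+ and 7 buccal unwounded sections and 1 Control and 2 PITX1+ wounds. P-values measure only the spread between these sections. Pitx1 in keratinocyte-like cells checked this assignment on the male slide, where it stood at 13.9 CPM in the Control section and at 1067 and 864.1 CPM in the PITX1+ sections. It did not do so on the female slide, where the Control sections had 58.9 and 50.1 CPM and the sections assigned to PITX1+ had 42.2 and 77.7 CPM. Other measures did differ there: the sections assigned to PITX1+ held 68416 and 79061 cells, against 20121 and 14636 in the Control sections, and activated-like and hair shaft clusters made up 31.8% and 27.1% of their keratinocyte-like cells, against 5 and 4 cells. CPM is the count of a gene scaled to a common total of panel transcripts in the cells named. Directions of the skin comparison rest on the order rule for these sections, and values within each slide are given beside the result. Sections held 474847 to 749248 transcripts in Control, 2832562 to 5581930 in PITX1+ and 136365 to 2368603 in buccal mucosa, and the median transcripts per cell were 17 to 28 in Control, 30 to 84 in PITX1+ and 33 to 124 in buccal sections. One buccal section (section 3) held no keratinocyte-like cell and was left out of every keratinocyte value.

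EGFR is a receptor tyrosine kinase that drives proliferation, migration and survival of keratinocytes. ERBB3 has little kinase activity of its own and signals in a pair with another member of the family. Amphiregulin and TGF-alpha are made as membrane proteins, released by metalloproteases of the ADAM family, and act on EGFR of the same or nearby cells; both are known from wounded and hyperplastic epidermis. In resting skin EGFR is known mainly from the basal layer and the outer root sheath of the hair follicle.

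By RefSeq on GRCm38.p6, Egfr lies at chr11:16752203-16913907, Erbb3 at chr10:128567523-128589635, Areg at chr5:91139599-91148432 and Tgfa at chr6:86195038-86275744. The promoters of both ligands are shown because the ligands, unlike the receptors, passed the test of PITX1+ against Control keratinocyte-like cells. Each window holds 250 bases before and 50 bases after the start used by the promoter table, which for Tgfa lies inside the gene's outer bounds. Capitals mark matches on either strand to the cyclic AMP response element TGACGTCA, the AP-1 site TGANTCA, the TATA box TATAAA, the GC box GGGCGG and the bicoid-type homeodomain core TAATCC, the kind of site that PITX factors bind. The windows lie on the plus strand at chr5:91139349-91139648 for Areg and chr6:86194972-86195271 for Tgfa.
Areg: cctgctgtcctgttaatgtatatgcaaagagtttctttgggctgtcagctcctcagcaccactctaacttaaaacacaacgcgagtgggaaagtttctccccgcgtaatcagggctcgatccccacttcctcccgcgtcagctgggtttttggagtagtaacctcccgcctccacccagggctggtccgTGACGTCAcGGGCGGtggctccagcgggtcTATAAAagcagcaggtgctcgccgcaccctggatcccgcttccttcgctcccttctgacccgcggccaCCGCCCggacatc
Tgfa: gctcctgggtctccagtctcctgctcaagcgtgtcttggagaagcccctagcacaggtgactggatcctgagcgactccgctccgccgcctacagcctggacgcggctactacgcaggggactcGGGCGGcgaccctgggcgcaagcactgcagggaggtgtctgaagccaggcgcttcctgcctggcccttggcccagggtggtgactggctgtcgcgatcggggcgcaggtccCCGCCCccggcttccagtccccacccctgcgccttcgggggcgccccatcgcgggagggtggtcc
The Areg window held TGACGTCA with its first base 61 bases before the start, a motif found in 1.79% of the 32851 promoters of this length. It also held TATAAA at 31 bases, a motif of 13.6% of promoters, and GGGCGG on both sides of the start, a motif of 35.7%. The Tgfa window held GGGCGG at 126 and 15 bases before the start and none of the other motifs. TGANTCA, present in 7.81% of promoters, and TAATCC, present in 7.06%, were in neither window. These matches describe the letters only. The Egfr window held 1 GGGCGG, and the Erbb3 window was not analysed here.

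Cells were grouped by the other panel genes, so the members took no part in naming a cell kind. Egfr was shared by the epithelium and the connective tissue, whereas Erbb3, Areg and Tgfa were concentrated in the epithelium. Keratinocyte-like cells had 4834 ± 744 CPM of Egfr in Control (SD, n = 3), 6651 ± 2814 in PITX1+ (n = 4) and 5242 ± 665 in buccal sections (n = 6). Fibroblast-like cells had 6084 ± 588, 7019 ± 1134 and 5359 ± 963 CPM of Egfr in the same order, the last over 7 sections. In Control section 3 fibroblast-like cells held 45.1% of its Egfr transcripts, against 29.6% in keratinocyte-like cells. In the other unwounded skin sections keratinocyte-like cells held 53.9% to 76.2%. The log2 difference in Egfr CPM between keratinocyte-like and fibroblast-like cells of the same section was -0.16 ± 0.37 (SD, n = 13), higher in 5 of 13 (p = 0.151 by an exact permutation test that flips the sign of each section's difference, two-sided). Counted per cell, Egfr was higher in keratinocyte-like cells by 0.89 ± 0.81 (log2), in 12 of 13 sections (exact p = 0.00342). Egfr was higher in keratinocyte-like than in macrophage or dendritic-like cells by 1.04 ± 0.56 (log2) and than in endothelial-like cells by 1.81 ± 0.65, in 13 of 13 sections each, at the smallest p the test can give, 0.000244. Such tests were run for 8 pairs of kinds and each of the 4 genes, and their p-values are not adjusted. The share of other panel genes that differ between these kinds is not given.

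Erbb3 separated these kinds more widely. In fibroblast-like cells it was at 278 ± 81.7 CPM in Control and 306 ± 101 CPM in PITX1+ sections, against 3091 ± 169 and 3885 ± 1791 CPM in keratinocyte-like cells. Erbb3 exceeded the fibroblast level by 2.58 ± 1.12 (log2), the macrophage or dendritic level by 3.02 ± 1.00 and the endothelial level by 1.97 ± 0.93, in 13 of 13 sections each (exact sign-flip p = 0.000244). Keratinocyte-like cells carried 68.6% to 94.2% of the Erbb3 transcripts of skin sections. Erbb3 was also high in a glandular-like cluster led by Krt8, Krt18 and Wfdc18. Only buccal section 6 held at least 50 of these cells, and its 2607 glandular-like cells had 8302 CPM of Erbb3 (95% exact Poisson interval 7980 to 8634), 72.1% of that section's Erbb3, beside 2966 CPM of Egfr and 1412 CPM of Tgfa. Areg was at 0 of 301721 transcripts in these cells, which allows up to 12.2 CPM. Intervals cover counting error only.

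Both ligands were higher in keratinocyte-like cells than in the 3 kinds tested against them. Tgfa in keratinocyte-like cells stood above fibroblast-like cells by 4.03 ± 0.70 (log2 CPM), above macrophage or dendritic-like cells by 4.55 ± 1.66 and above endothelial-like cells by 2.00 ± 0.80, and Areg by 3.24 ± 1.31, 3.08 ± 1.45 and 3.69 ± 1.36, each in 13 of 13 sections (exact sign-flip p = 0.000244). Areg in fibroblast-like cells was 14.5 to 186 CPM in Control, 25.6 to 157 CPM in PITX1+ and 0 to 30.8 CPM in buccal sections, a low level that in skin was higher on the female than on the male slide. Tgfa in fibroblast-like cells was 34.5 to 233 CPM over all unwounded sections. As a floor for these levels, the 20 negative control probes averaged 32.4 to 329.75 calls per slide and the most frequent of them had 151 to 3654, where Areg, with 1046 to 10094 calls, exceeded it on all 4 slides. The part of stray calls and of transcripts from neighbouring cells in the low ligand counts outside the epithelium was not tested. Neutrophil-like cells were too few in the Control and buccal sections for a level. In 3 PITX1+ sections they had 666 to 957 CPM of Areg, from 1 to 7 transcripts a section. Their Tgfa was 0 to 1640 CPM, from at most 12 transcripts a section. This Areg range lay above the Control keratinocyte-like mean, 346 CPM. It lay below the PITX1+ keratinocyte-like mean, 1371 CPM (597 to 2168 over sections). In the wounds, with 25 to 196 Areg transcripts a section, neutrophil-like cells had 210 to 305 CPM of Areg. In sebaceous-like cells Egfr was 8779 ± 3114 CPM in Control and 5507 ± 1092 CPM in PITX1+ sections, whereas Areg was at most 134 CPM.

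**Figure D1:**
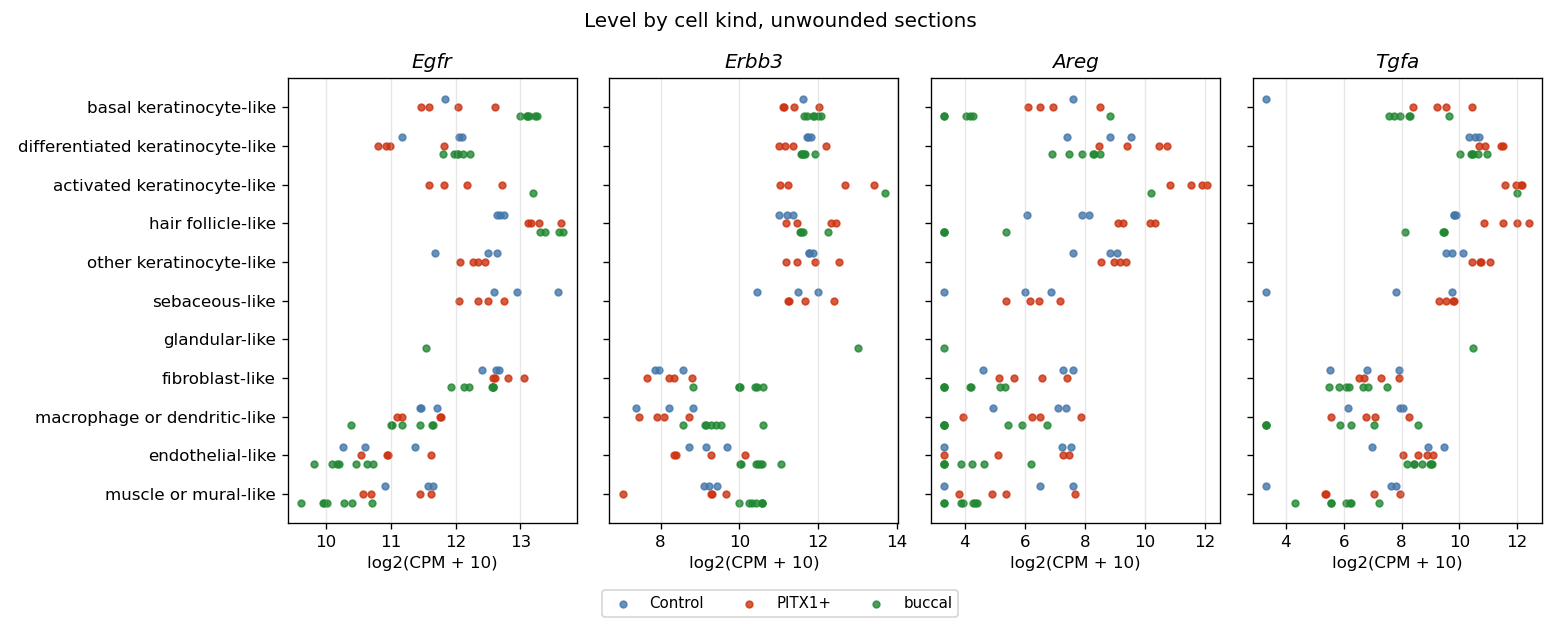
Level of Egfr, Erbb3, Areg and Tgfa as log2(CPM + 10) by cell kind in the unwounded Control, PITX1+ and buccal sections; each point is 1 section. The keratinocyte kinds are plotted separately. With these kinds pooled per section, Egfr CPM was similar in keratinocyte-like and fibroblast-like cells. Erbb3, Areg and Tgfa were then higher in keratinocyte-like cells in 13 of 13 sections. Single kinds can lie lower, as Areg in buccal basal-like cells, which goes down to 0 CPM.

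Within the epithelium the ligands and Egfr ran in opposite directions through the layers when read as CPM. The 11 sections with enough cells of both kinds were 6 buccal sections, 4 PITX1+ sections and 1 Control section, whose basal-like cells numbered 104. Differentiated-like cells had less Egfr than basal-like cells of the same section, by 0.95 ± 0.25 on the log2 scale and in 11 of 11 sections (exact sign-flip p = 0.000977). Tgfa was higher in differentiated-like cells by 2.49 ± 1.61, in 11 of 11 sections (p = 0.000977 by the same exact test), and Areg by 2.74 ± 1.64, in 9 of 11 (exact p = 0.00391). The largest Tgfa difference, 7.03, was that of the Control section, where basal-like cells held 0 Tgfa transcripts of 5459, which allows up to 676 CPM; without it the mean was 2.04. Erbb3 differed by -0.09 ± 0.19 and was lower in 8 of 11 sections (exact p = 0.145). The receptor result depends on the scale, because differentiated-like cells held more panel transcripts per cell. Counted per cell, Egfr differed by -0.04 ± 0.52 (log2; exact p = 0.812) and Erbb3 was higher in differentiated-like cells by 0.83 ± 0.54 (exact p = 0.00195), while Tgfa and Areg were higher by 3.12 ± 1.00 and 4.04 ± 2.76. The ligands thus rose with differentiation on both scales, and Egfr fell only as a share of the cell's transcripts. For the epidermis away from a Control wound, the paper lists Egfr among the markers of its suprabasal cluster, under its own grouping of cells.

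The buccal epithelium showed this order most finely, in a basal cluster led by Mt3, Col17a1 and Wnt16, an intermediate cluster led by Mt4 and Krt4 and a late cluster led by Sprr3 and Krt78, in 6 sections each. In buccal sections 1, 2, 4, 5, 6 and 7, Egfr in the basal cluster was 9608, 9013, 8819, 8148, 9863 and 8806 CPM. In the intermediate cluster it was 6577, 5339, 5712, 6664, 7766 and 6172 CPM, and in the late cluster 2638, 2688, 3492, 3021, 2720 and 2688 CPM. The 3 clusters did not overlap in Egfr. They were made from the other panel genes, and the share of those genes that also separate them is not given. The log2 step was -0.51 ± 0.17 from basal to intermediate and -1.14 ± 0.28 from intermediate to late, lower in 6 of 6 sections each (exact sign-flip p = 0.0313, the smallest it can give with 6 sections). Per cell, Egfr rose by 0.27 ± 0.18 at the first step (6 of 6 sections, exact p = 0.0313) and differed by -0.01 ± 0.54 at the second.

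Tgfa in the same basal cluster was 300, 179, 194, 270, 750 and 238 CPM, in the intermediate cluster 492, 378, 273, 614, 727 and 458 CPM, and in the late cluster 1944, 1801, 1615, 2047, 2787 and 1984 CPM. The late cluster stood above the others in all 6 sections. Tgfa rose by 2.07 ± 0.28 (log2) from intermediate to late in 6 of 6 sections (exact sign-flip p = 0.0313), and by 0.71 ± 0.44 from basal to intermediate in 5 of 6 (exact p = 0.0625). Areg was nearly absent from the buccal basal cluster, at 7.9, 6.6, 9.7, 0, 412 and 0 CPM, where the counts of 0 allow up to 43.4 and 13.5 CPM. Section 6 stood apart from the other 5. Areg then reached 64.9, 69.1, 80.8, 54.6, 330 and 24.1 CPM in the intermediate and 431, 215, 469, 303, 360 and 160 CPM in the late cluster. Its late step was 1.86 ± 0.93 in 6 of 6 sections (exact p = 0.0313). Erbb3 was even across the first step, 0.00 ± 0.11 (exact p = 0.969), and lower in the late cluster by 0.36 ± 0.13 in 6 of 6 sections, where per cell it was higher by 0.77 ± 0.45 in 5 of 6 (exact p = 0.0625).

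**Figure D2:**
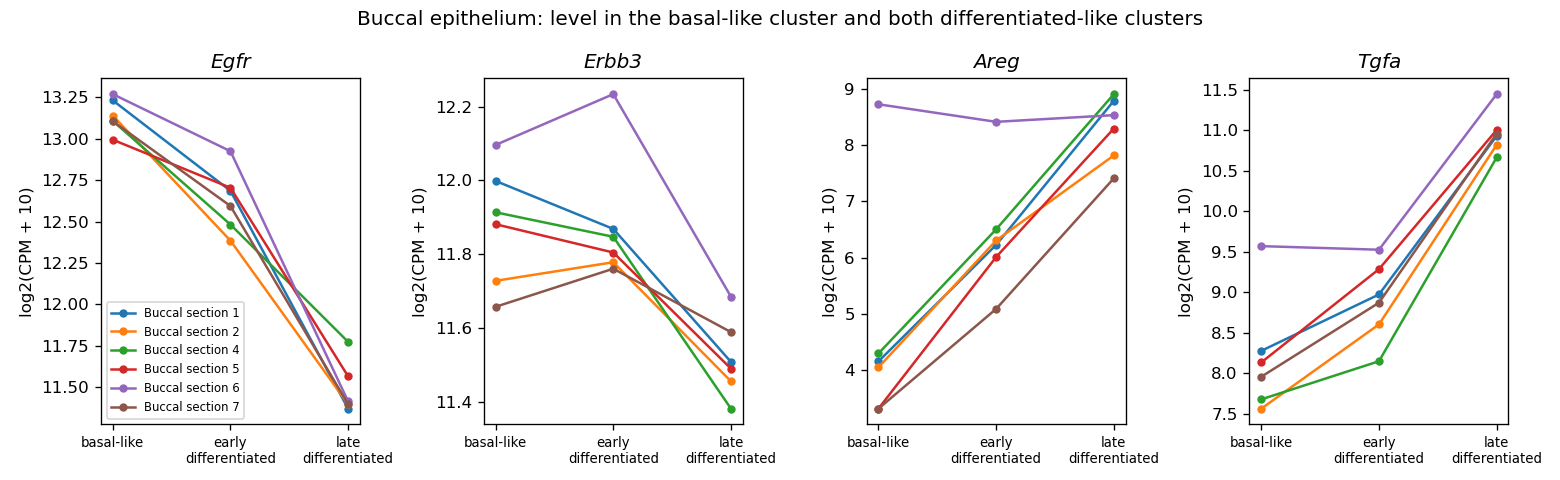
Level of each member, as log2(CPM + 10) on axes that do not start at 0, in the basal-like, early differentiated (intermediate) and late differentiated clusters of the buccal epithelium; each line joins the clusters of 1 of 6 sections. Egfr steps down and Tgfa steps up toward the late cluster, Erbb3 is even over the first step and lower by 0.36 in the late cluster, and Areg is lowest in the basal cluster except in section 6 with 412 CPM.

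The comparison of PITX1+ with Control skin sets mice on doxycycline chow beside littermates on normal chow. Doxycycline and the induced factor cannot be told apart in it. Both ligands were higher in keratinocyte-like cells of PITX1+ skin and neither receptor passed the test. Areg was 530, 382 and 125 CPM in Control sections 1 to 3, from 198, 99 and 18 transcripts, and 2168, 1380, 1339 and 597 CPM in PITX1+ sections 1 to 4. Tgfa was 1307, 1233 and 1065 CPM in Control and 3524, 3066, 3004 and 1907 CPM in PITX1+ sections. For both ligands every PITX1+ section lay above every Control section. The fitted rise was 2.41 ± 0.41 (log2 fold ± SE, 5.30-fold) for Areg and 1.36 ± 0.29 (2.56-fold) for Tgfa, with edgeR quasi-likelihood adjusted p of 0.0106 and 0.0164 over all genes tested; in this fit 31.4% of the 328 genes were called. The Tgfa call was lost without Control section 1 or 2 (edgeR adjusted p = 0.0694 and 0.0731), and both calls were lost without the slide covariate (0.0513 for Areg and 0.0648 for Tgfa).

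Egfr was 5266, 5261 and 3975 CPM in the keratinocyte-like cells of the Control sections and 3889, 4832, 7864 and 10020 CPM in PITX1+ sections 1 to 4. Sections 1 and 2, on the female slide, lay below both Control sections of that slide. Sections 3 and 4, on the male slide, lay above all Control sections. The fitted difference was 0.34 ± 0.24 (edgeR adjusted p = 0.291). Erbb3 was 3008, 2979 and 3285 CPM in Control and 2226, 2466, 5174 and 5674 CPM in PITX1+ sections, below Control on the female slide and above it on the male slide, with a fitted difference of 0.13 ± 0.19 (edgeR adjusted p = 0.606). The directions by slide are in CPM, whereas the fitted differences use TMM scaling and need not share them. A test of the difference between slides, which called 4.57% of genes in keratinocyte-like cells, called no member: Egfr differed by 0.75 ± 0.35 (male minus female, edgeR adjusted p = 0.275), Erbb3 by 0.38 ± 0.32, Areg by 0.30 ± 0.83 and Tgfa by -0.85 ± 0.48 (edgeR adjusted p = 0.337). Pitx1 itself differed by 5.29 ± 0.85 in that test (edgeR adjusted p = 0.0226).

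Within the female slide alone, whose sections showed no rise of Pitx1, the Areg fold was 2.37 ± 0.34 and the Tgfa fold 1.77 ± 0.29 (log2; edgeR adjusted p = 0.000381 and 0.00106; 41.2% of genes called). Within the male slide the folds were 2.84 for Areg and 1.09 for Tgfa, given with no test because its Control arm is 1 section. Egfr and Erbb3 were also higher in both male PITX1+ sections than in the male Control section, as given above. Sex and slide cannot be told apart. Over all cells of a section, with no cell kinds, Areg was higher in PITX1+ by 2.31 ± 0.52 and Tgfa by 1.49 ± 0.31 (edgeR adjusted p = 0.0223 and 0.0177; 20.4% of genes called). The Areg call was lost in 3 of 7 fits that left out 1 section (Control 2 or 3, PITX1+ 1) and the Tgfa call in 2 of 7 (Control 1 or 2), with edgeR adjusted p up to 0.0719, and both were lost without the slide covariate. Egfr and Erbb3 differed by 0.07 ± 0.24 and 0.20 ± 0.27 without passing the test. In a whole section, more ligand-bearing cells and more transcripts per cell cannot be told apart.

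**Figure D3:**
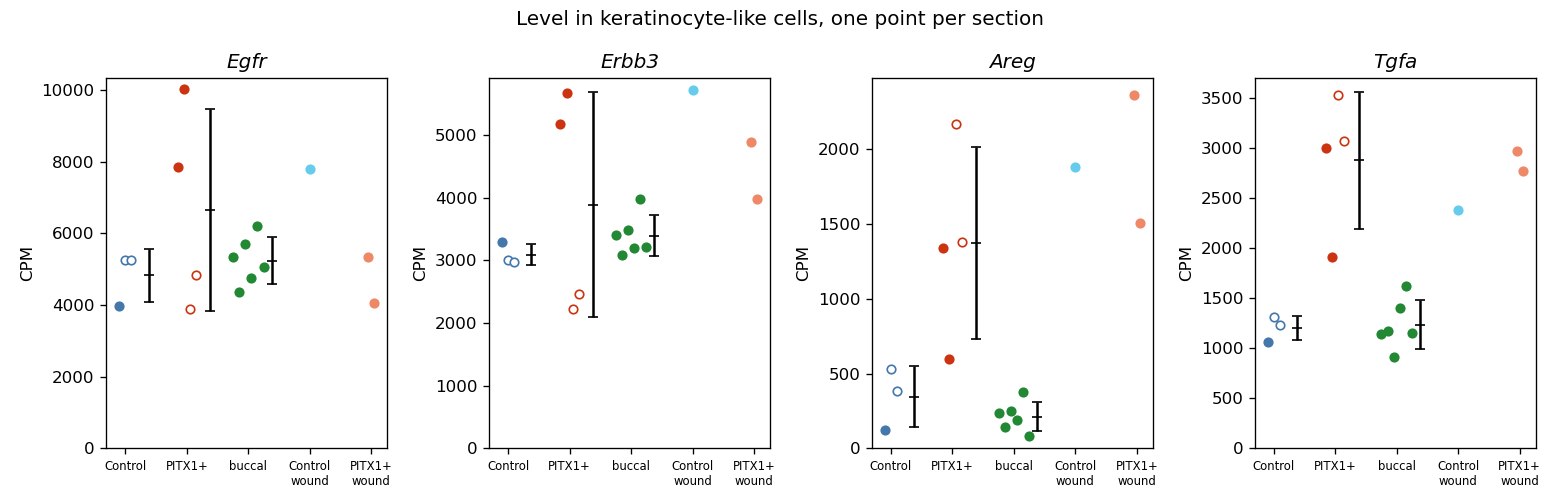
Level of each member (CPM, axis from 0) in keratinocyte-like cells of every section; each point is 1 section, open points are on the female slide and bars give the mean ± SD of the unwounded groups. The PITX1+ points of Areg, 597 to 2168 CPM, and Tgfa, 1907 to 3524 CPM, lie above all Control points. Those of Egfr and Erbb3 lie below the Control points of the same slide on the female slide and above the Control point on the male slide.

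The ligand rise was read again by keratinocyte kind. In hair follicle-like cells Areg was 268, 229 and 57.9 CPM in Control sections 1 to 3 and 1129, 1279, 612 and 536 CPM in PITX1+ sections 1 to 4, and Tgfa was 884, 880 and 926 CPM against 5409, 4090, 2890 and 1846 CPM. The groups did not overlap for either ligand. Egfr did not overlap there either, at 6393 to 6871 CPM in Control and 8883 to 12609 CPM in PITX1+ sections, but did not pass the test. The folds were 2.42 ± 0.31 for Areg and 1.89 ± 0.32 for Tgfa (log2; edgeR adjusted p = 0.000291 and 0.00137; 40.2% of genes called). With 30 clusters in place of 45 both calls were lost (Areg 2.37 and Tgfa 1.07, edgeR adjusted p = 0.0792 and 0.104). The follicle cells were of different clusters: those led by Shh and by Dsg4 with Krtap17-1 had 160 and 9 cells over the Control sections and 15837 and 7048 over the PITX1+ sections. Differentiated-like cells gave 2.19 ± 0.42 for Areg (edgeR adjusted p = 0.0245) and 1.28 ± 0.43 for Tgfa (edgeR adjusted p = 0.0932), with 7.28% of genes called. The Areg call there was lost without any 1 of 5 of the 7 sections (Control 1 or 2, PITX1+ 1, 2 or 3), with a range of 1.94 to 2.65 and edgeR adjusted p up to 0.135, and with library size in place of TMM (1.49, edgeR adjusted p = 0.0615). Tgfa passed there without Control section 3 (2.08, edgeR adjusted p = 0.00165) or PITX1+ section 4 (1.55, edgeR adjusted p = 0.049) and with DESeq2 (1.32), and ranged from 1.06 to 2.08 over the fits that left out 1 section. There the change of Tgfa differed between slides by -1.72 ± 0.44 (male minus female, edgeR adjusted p = 0.0426, 12.3% of genes called). That slide test was run with TMM scaling only. In CPM, Tgfa in differentiated-like cells was 1293 to 1638 in Control and 1620 to 2897 in PITX1+ sections. Library size in place of TMM moved the median gene of this kind by -0.63 (log2). The differentiated-like cells were also of different clusters: of those led by Krt77 and Flg2, by Krt79 and Plet1 and by Flg and Hrnr, the Control sections held 5034, 906 and 16 cells and the PITX1+ sections 4183, 8109 and 3351. The Flg and Hrnr cluster reached 50 cells only in PITX1+ sections 1 and 2, both on the female slide, with 841 and 1290 CPM of Areg and 2177 and 2689 CPM of Tgfa. In the Krt77 and Flg2 cluster Areg was 707, 318 and 131 CPM in Control sections 1 to 3 and 641, 217 and 174 CPM in PITX1+ sections 1, 3 and 4, and Tgfa 1388, 1443 and 1223 CPM against 1099, 1241 and 1360 CPM. Both ligands overlapped between the conditions in that cluster. In fibroblast-like cells no member passed the test, with folds between -0.33 and 0.34 (log2) and 6.73% of genes called. Macrophage or dendritic-like, endothelial-like, muscle or mural-like and sebaceous-like cells gave no call for any member either, where 0.621%, 2.9%, 0% and 15.5% of genes were called, so that in the first 3 kinds few genes of any sort passed. In muscle or mural-like cells edgeR called 0 of 277 genes, 50 had an unadjusted p under 0.05 and DESeq2 called 1. Areg was too low for the test in the last 3 of these kinds and Tgfa in muscle or mural-like cells.

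The Control sections held too few cells of some PITX1+ clusters for a comparison, so clusters present in every skin section were also compared. A cluster led by Krt15, Lhx2 and Col17a1 was named hair follicle-like. Krt15 and Col17a1 were also basal markers here, and 3 buccal sections held 94 to 257 of its cells. Only 123 Control cells were called basal-like, and the part of basal epidermal cells in this cluster was not tested. Its Areg was 266, 221 and 61.9 CPM in Control and 129, 212, 108 and 120 CPM in PITX1+ sections. Its Tgfa was 848, 848 and 846 CPM against 688, 1487, 1076 and 1163 CPM. These values overlapped, and no member passed the test (Areg -0.17 ± 0.43, Tgfa 0.27 ± 0.29; edgeR adjusted p = 0.865 and 0.652; 7.12% of genes called). In a cluster led by Fcgbp, Krt79 and Sostdc1 Tgfa was 1103, 851 and 727 CPM in Control and 1667, 1361, 1711 and 2111 CPM in PITX1+ sections, which did not overlap, and the fitted difference was 0.78 ± 0.31 (edgeR adjusted p = 0.103; 15.5% of genes called). Areg differed there by 0.34 ± 0.43. In a cluster led by Krt79, Plet1 and Crabp2 Areg differed by 1.06 ± 0.39 (edgeR adjusted p = 0.0839) and Tgfa by 0.46 ± 0.30 (30.2% of genes called). No member passed the test in any of these 3 clusters, but Areg in the Krt79, Plet1 and Crabp2 cluster passed without Control section 2 (1.75, edgeR adjusted p = 0.0174), with no filter on genes (1.43, edgeR adjusted p = 0.0246) and with DESeq2 (1.11), and its lowest value without 1 section was 0.86.

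Except for Tgfa in section 4, most ligand transcripts of unwounded PITX1+ keratinocyte-like cells lay in clusters that unwounded Control skin nearly lacked. These were 3 activated-like clusters, with Krt1, Stfa3 and Krt16, with Krt16 and Krt6a, and with Aldh1a3, Sprr2d and Plet1 among their leading genes, and the hair shaft cluster led by Dsg4 and Krtap17-1. They made up 31.8%, 27.1%, 26.2% and 12.7% of keratinocyte-like cells in PITX1+ sections 1 to 4 and held 70.0%, 57.7%, 83.7% and 67.8% of the Areg and 60.1%, 58.0%, 66.9% and 45% of the Tgfa. In the Control sections they numbered 5, 4 and 13 cells, with 2 ligand transcripts in all. Outside these clusters Areg was 1016, 887, 333 and 224 CPM in PITX1+ sections 1 to 4, against 530, 382 and 126 CPM in Control, and Tgfa was 2194, 1960, 1514 and 1219 CPM against 1302, 1234 and 1068 CPM. These remainders were higher in PITX1+ than in Control sections of the same slide but did not hold like cells, since clusters led by Flg and Hrnr and by Shh numbered 16 and 160 cells over the Control sections and 3351 and 15837 over the PITX1+ sections. This split was made after the values had been seen and was not tested.

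Activated-like cells of PITX1+ sections held more Areg than basal-like cells by 4.58 ± 1.50 and more Tgfa by 2.57 ± 1.04 (log2 CPM), in 4 of 4 sections, where the exact sign-flip test cannot go below 0.125. The hair shaft cluster had 3637, 4513, 2166 and 2870 CPM of Areg and 23451, 14200, 9326 and 7079 CPM of Tgfa in PITX1+ sections 1 to 4. Its Tgfa in sections 1 and 2 exceeded the highest value of the activated-like clusters, 9628 CPM in the cluster led by Aldh1a3. Compared with the Krt15 cluster, the hair shaft cluster had more Areg by 4.43 ± 0.21, more Tgfa by 3.50 ± 1.08 and more Erbb3 by 1.45 ± 0.40, in 4 of 4 sections each, and more Egfr by 0.54 ± 0.42 in 3 of 4.

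**Figure D4:**
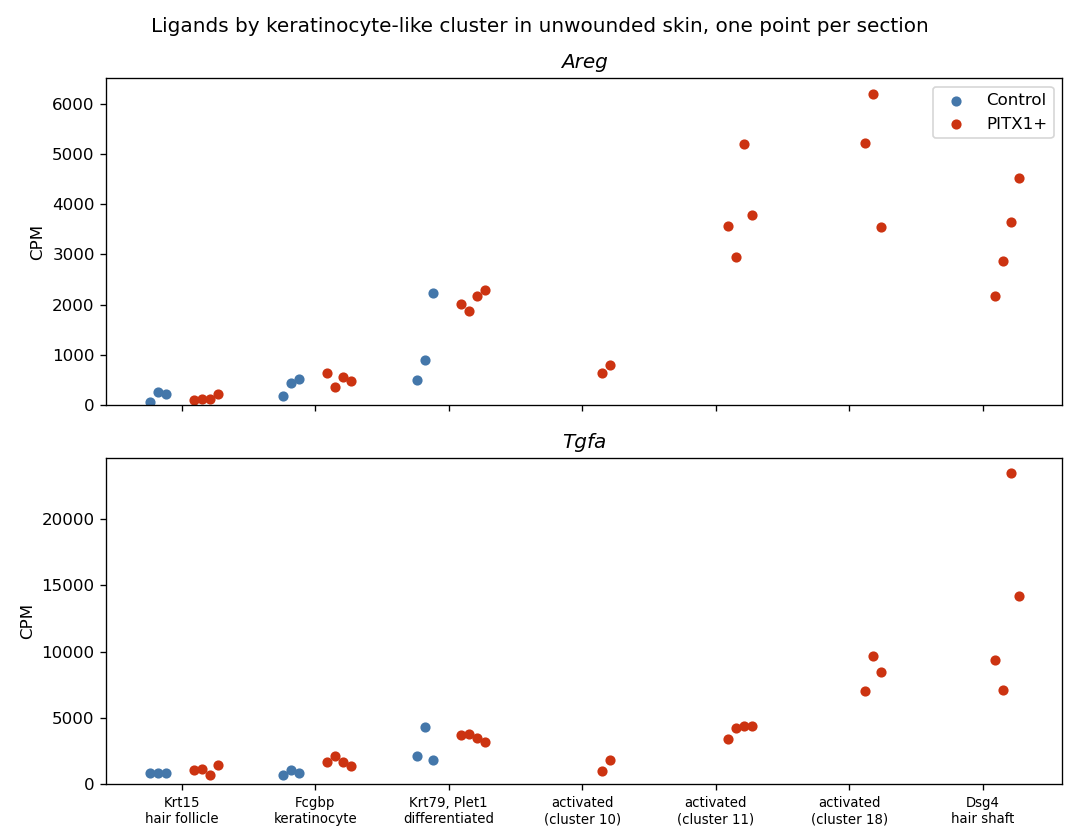
Level of Areg and Tgfa (CPM, axis from 0) in keratinocyte clusters of the Control and PITX1+ sections; each point is 1 section with at least 50 cells of the cluster. In the 3 clusters found in every skin section the conditions overlap except for Tgfa in the Fcgbp cluster, and the activated-like and hair shaft clusters, which hold up to 31.8% of PITX1+ keratinocyte-like cells, have no Control point.

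The other pathway genes on the list used here were Lrig1, which restrains EGF receptors, the sheddase Adam10 and the early response genes Fos, Jun, Junb and Atf3. In keratinocyte-like cells 1 of 6 was higher in PITX1+ (Adam10, 0.94 ± 0.24, edgeR adjusted p = 0.0258) and 1 of 6 lower (Fos, -1.09 ± 0.25, edgeR adjusted p = 0.0199), beside 31.4% of all genes called in either direction. With library size Adam10 was 0.87 and did not pass (edgeR adjusted p = 0.0992). The median log2 fold was 0.10 over these 6 genes, 0.85 over the 4 members and -0.07 over all genes tested. Lrig1 (-0.26), Jun (0.46), Junb (0.56) and Atf3 (-0.79) did not pass the test. In hair follicle-like cells Adam10 (1.10 ± 0.28) and Junb (1.07 ± 0.24) were higher and none was lower, where 40.2% of genes were called, and in the Krt79, Plet1 and Crabp2 cluster Adam10 was higher (1.58 ± 0.37) and Atf3 lower (-1.30 ± 0.38), where 30.2% were.

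Buccal mucosa is a tissue in which Pitx1 is normally made, and the buccal comparison places the levels of skin beside it. The buccal and Control sections are on different slides, so tissue and slide cannot be told apart, and the comparisons with Control skin share the same Control sections. In keratinocyte-like cells of buccal sections 1, 2, 4, 5, 6 and 7 Egfr was 5349, 4359, 5706, 4764, 6212 and 5061 CPM, Erbb3 was 3409, 3079, 3486, 3190, 3984 and 3217 CPM, and Tgfa was 1146, 1167, 909, 1401, 1617 and 1155 CPM. All 3 overlapped with Control. Areg was 234, 144, 248, 191, 375 and 85.0 CPM, within or below the Control range of 125 to 530 CPM.

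With TMM scaling, which sets the bulk of the panel equal between tissues, Egfr was higher in buccal than in Control keratinocyte-like cells by 1.48 ± 0.17, Erbb3 by 1.47 ± 0.20 and Tgfa by 1.40 ± 0.24 (edgeR adjusted p = 2.3e-05, 9.81e-05 and 0.000387), and Areg by 0.68 ± 0.44 without passing the test (edgeR adjusted p = 0.184). In this fit 68.7% of the genes were called. Scaling by library size in place of TMM moved the median of all genes by -1.37 (log2) and left Egfr at 0.12, Erbb3 at 0.13, Tgfa at 0.03 and Areg at -0.72, none of which passed the test. Relative to the median gene the receptors and Tgfa were thus higher in the buccal epithelium, and as a share of all panel transcripts they were level. Over all cells of a section no member passed the test (38.1% of genes called); Erbb3 differed by 1.36 ± 0.59 (edgeR adjusted p = 0.0865).

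Erbb3 was also higher in buccal fibroblast-like, muscle or mural-like and endothelial-like cells, and its difference in macrophage or dendritic-like cells did not pass the test. In fibroblast-like cells it was 446 to 1551 CPM in buccal sections (median 1032, n = 7) against 222 to 371 CPM in Control, a log2 fold of 1.73 ± 0.37 (edgeR adjusted p = 0.0036; 39.5% of genes called). Muscle or mural-like cells gave 1.42 ± 0.29 (edgeR adjusted p = 0.00203; 45.1% of genes called). Endothelial-like cells gave 1.19 ± 0.35 (edgeR adjusted p = 0.0274; 29.9% of genes called), a call lost without any 1 of 4 of the 10 sections (Control 1 or 2, buccal 5 or 7), with edgeR adjusted p up to 0.119. Macrophage or dendritic-like cells gave 0.70 ± 0.49 (edgeR adjusted p = 0.329; 23.3% of genes called). Egfr was lower in buccal muscle or mural-like cells, by -0.94 ± 0.25 (edgeR adjusted p = 0.00922), and this call was lost without Control section 1 (-0.83, edgeR adjusted p = 0.0548). With 30 clusters in place of 45, the calls in muscle or mural-like cells (Erbb3 0.61, Egfr -0.42) and endothelial-like cells (Erbb3 0.68) were lost. Keratinocyte-like cells of buccal sections held 0.64 to 1.03 Erbb3 transcripts per cell against 0.11 to 0.18 in Control, and the part of transcripts from neighbouring keratinocytes in the Erbb3 of other cells was not tested.

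Against PITX1+ keratinocyte-like cells, Areg was lower in buccal cells by -1.66 ± 0.40 (edgeR adjusted p = 0.0038; 59.6% of genes called), and no buccal section reached the lowest PITX1+ section, 597 CPM. Tgfa differed by -0.12 ± 0.26 with TMM and by -1.22 with library size (edgeR adjusted p = 0.00107), where the 2 scalings stood 1.13 apart in the median gene (log2). Egfr and Erbb3 were higher in buccal cells by 0.78 ± 0.25 and 0.94 ± 0.27 with TMM (edgeR adjusted p = 0.0185 and 0.0102), and lower by -0.34 and -0.20, without passing the test, with library size. The Egfr call was lost without PITX1+ section 1, 2 or 3 (edgeR adjusted p up to 0.116) and the Erbb3 call without PITX1+ section 1 (0.0637). Of the pathway genes, Adam10 (2.05 ± 0.29) and Junb (1.27 ± 0.21) were higher and Lrig1 (-1.93 ± 0.19) and Atf3 (-3.10 ± 0.54) lower in buccal than in Control keratinocyte-like cells, with TMM scaling, in the fit that called 68.7% of genes. With library size Adam10 was 0.77, Lrig1 -3.31 and Atf3 -4.57, all still past the threshold, Junb was -0.08 and did not pass (edgeR adjusted p = 0.771), and Fos passed at -2.34.

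In the wounds there was 1 Control and 2 PITX1+ sections, so values are given with 95% exact Poisson intervals, which cover counting error only, and no test. Areg in keratinocyte-like cells was 1882 CPM (1781 to 1988) in the Control wound and 2359 (2282 to 2438) and 1505 (1448 to 1564) CPM in PITX1+ wounds 1 and 2. Tgfa was 2378 CPM (2264 to 2495) in the Control wound and 2968 and 2767 CPM in the PITX1+ wounds. The Control wound thus held more of both ligands than any of the 3 unwounded Control sections, of which section 3 is the male one. The wounds are on their own slide, so wounding and slide cannot be told apart. Hair follicle-like cells were 2283 of the 4754 keratinocyte-like cells of the Control wound. They held 275 of its 1300 Areg and 717 of its 1642 Tgfa transcripts. Its hair shaft cluster had 799 cells, a cluster that unwounded Control skin nearly lacked. The part of follicle content was not tested. Egfr was 7789, 5354 and 4050 CPM and Erbb3 5718, 4882 and 3975 CPM in the Control wound and PITX1+ wounds 1 and 2. Both were highest in the Control wound, where hair follicle-like cells held 3190 of the 5379 Egfr transcripts of keratinocyte-like cells. Activated-like and hair shaft clusters held 35.4%, 49.1% and 58.7% of the keratinocyte-like cells of these wounds, with 64.2%, 89.5% and 87.3% of their Areg and 62.2%, 74.0% and 77.8% of their Tgfa.

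Keratinocyte-like cells lay on both sides of a gap of 2700 µm in the Control wound and 2800 and 2600 µm in the PITX1+ wounds, and were binned by distance from its edge. On the first side of the Control wound Areg fell from 2773 CPM within 250 µm to 597, 89 and 331 CPM in the bins to 500, 1000 and 2000 µm and 206 CPM beyond. On the second side it fell from 6797 CPM to 3410, 1921 and 1632 CPM and was 1726 CPM beyond 2000 µm. Areg was thus highest next to the gap on both sides, where 53.5% and 72.5% of keratinocyte-like cells were activated-like, against 0% and 1.38% beyond 2000 µm. Tgfa was 2525 and 5087 CPM within 250 µm on these sides and 1233 and 3645 CPM beyond 2000 µm, with its lowest value between.

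In PITX1+ wound 1 Areg was 2338, 2319, 1679, 1959 and 3434 CPM in the same bins outward from the gap on the first side, and 1383, 2028, 2213, 472 and 432 CPM on the second. In PITX1+ wound 2 it was 2022 CPM within 250 µm and 1777, 368 and 140 CPM from 500 µm outward on the first side, and 2242, 1783, 1697, 1140 and 1652 CPM on the second. The bin from 250 to 500 µm on the first side of PITX1+ wound 2 held too few cells for a value. The value next to the gap on that side rests on 13 transcripts, and its interval, 1077 to 3457 CPM, covers the next bin outward. On the second side the interval next to the gap, 1939 to 2579 CPM, overlaps that of the next bin, 1531 to 2065 CPM. In PITX1+ wound 1 the highest values were those beyond 2000 µm on the first side and from 500 to 1000 µm on the second. Egfr ran the other way on the second side of the Control wound, from 4231 CPM within 250 µm to 17292 CPM beyond 2000 µm, and was 5072 and 5785 CPM at these distances on the first side. In PITX1+ wound 1 Egfr was 4845 and 4832 CPM at these distances on the first side and 7892 and 4249 CPM on the second, and in PITX1+ wound 2 it was 7621 and 8089 CPM on the first side and 3993 and 3901 CPM on the second. Between these distances none of the 4 sides of the PITX1+ wounds rose as far as the second side of the Control wound. Over the whole Control wound Egfr was 15062 CPM in hair follicle-like cells. It was 5356 CPM in activated-like, 5081 CPM in basal-like and 2945 CPM in differentiated-like cells. The share of follicle cells in each bin is not given, and its part in the Egfr values by distance was not tested. Within the gap, over all cells, Areg was 469, 486 and 222 CPM in the Control wound and PITX1+ wounds 1 and 2.

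**Figure D5:**
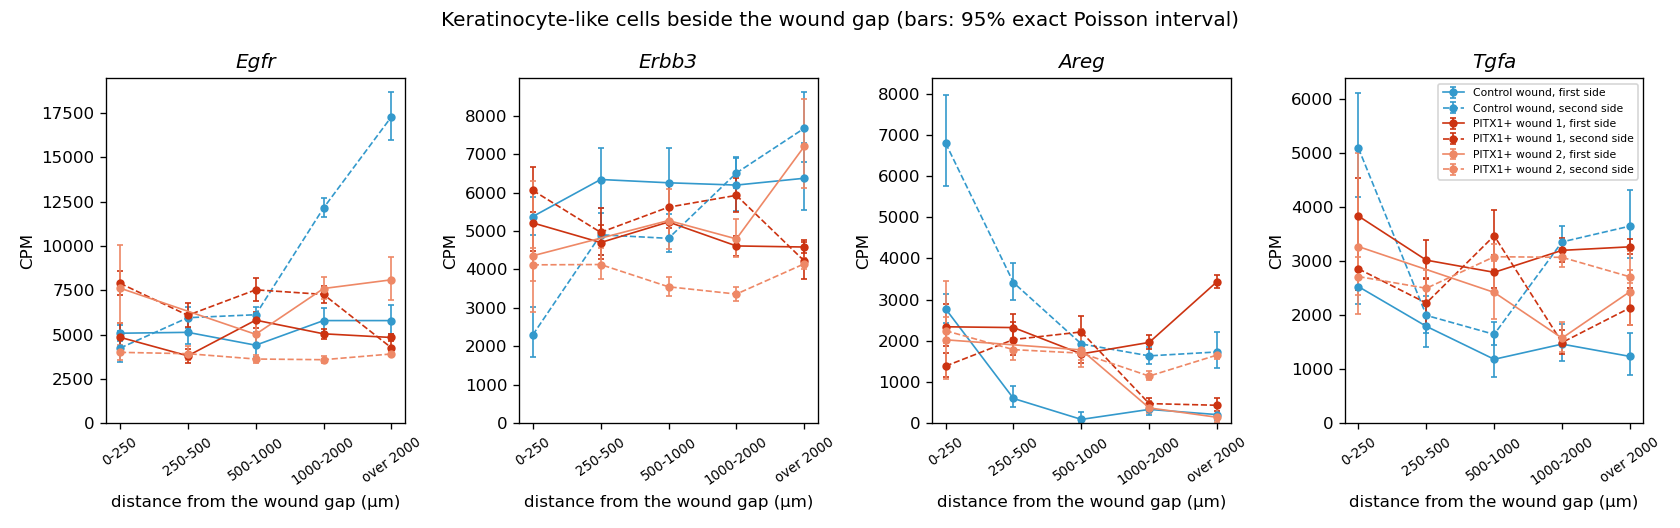
Level of each member (CPM) in keratinocyte-like cells by distance from the wound gap (µm), for the first and second side of the Control wound and both PITX1+ wounds; each point is 1 bin, error bars are 95% exact Poisson intervals, and the line of the first side of PITX1+ wound 2 skips the bin from 250 to 500 µm. Areg is highest within 250 µm on both sides of the Control wound, 2773 and 6797 CPM. Beyond 2000 µm it is 3434 and 432 CPM on the first and second side of PITX1+ wound 1. On those sides of PITX1+ wound 2 it is 140 and 1652 CPM.

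Whether ligand and receptor transcripts lie near each other was also examined. Keratinocyte-like cells within 50 µm of another cell with an Areg or Tgfa transcript were compared with those farther away. This was done in the 9 sections with at least 50 cells of each kind. The ligands themselves set this split, so a ligand held in patches comes out higher in near cells by design. The Areg and Tgfa values are therefore a description, and their p-values are no test of a spatial relation. Few cells lay far from a ligand transcript: 92.4% to 99.6% of the keratinocyte-like cells were near in 7 of the 9 sections, and 4 sections had only 59 to 177 far cells, so the far levels rest on few transcripts and were 0 CPM of Areg in buccal section 2. Egfr differed by 0.12 ± 0.84 (log2 CPM, near minus far, SD; higher in 3 of 9 sections; exact sign-flip p = 0.695) and Erbb3 by 0.39 ± 0.62 (7 of 9; exact p = 0.082). Areg differed by 1.53 ± 1.71 (8 of 9; exact p = 0.0352) and Tgfa by 1.33 ± 1.46 (9 of 9; exact p = 0.00391), means that the small far groups weigh on: the 2 largest Areg differences, 3.95 and 3.62, and the largest of Tgfa, 4.77, came from sections with 59 and 177 far cells. Within clusters, in 6 sections, Areg differed by 0.38 ± 0.75 (exact p = 0.281) and Egfr by 0.13 ± 0.27 (exact p = 0.312). Tgfa differed by 1.95 ± 2.61 and Erbb3 by 0.37 ± 0.24, both in 6 of 6 sections (exact p = 0.0313, the smallest possible). The split within clusters was not planned. Other distances and splits by a single ligand were also run, and none of these p-values is adjusted.

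The members also differed in their place within the cell. Tgfa transcripts lay over the nucleus in 22.7% to 54.4% of cases per section (median 37.5%, n = 17), above the median panel gene of the same section in 3 of 17. For Egfr the share was 45.5% to 65.4%, above the median gene in 17 of 17 sections. For Erbb3 it was 41.0% to 63.2% (15 of 17) and for Areg 35.9% to 69.0% (14 of 17). The Areg share rests on 2 transcripts in buccal section 3 and 22 in Control section 3, and all shares are over all cell kinds. Over 40 points, each a cell kind in Control, PITX1+, buccal or wound tissue, the genes most like Egfr were Ephb3, Krt15 and Fgfr2 (Pearson r of log2 CPM 0.81, 0.77 and 0.75). Those most like Erbb3 were Ephb3, Barx2 and Krt5 (0.78, 0.77 and 0.74), those most like Areg were Krt16, Aldh1a3 and Ivl (0.85, 0.83 and 0.83), and those most like Tgfa were Dsc2, Krt23 and Sdc1 (0.78, 0.77 and 0.73). Areg and Tgfa correlated at 0.67 with each other and Egfr and Erbb3 at 0.56. These points share slides and depth and are given as a description.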

How the data were processed

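Xenium in situ transcripts were measured on 4 slides. Per the labels and methods, the authors segmented cells and deposited cell tables, transcript tables and count matrices: transcript counts per gene and cell, with a quality score for each transcript, and coordinates in micrometres as well as the overlap with the nucleus. No expression value was normalized. The software version and probe sequences were not given in the sources used here, and section conditions came from the order rule stated above.

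Transcripts of quality score 20 or higher were counted per cell, which matched the deposited counts in 100% of cells. Cells with at least 10 transcripts were clustered without the members, by k-means in scikit-learn 1.9.0 (45 clusters, 40 principal components), and clusters were named by a marker list, with at least 3 markers raised. A named kind is therefore "like" its type; doublets were not removed. Counts were summed per section and kind (at least 50 cells) and tested with edgeR 4.0.16 (filterByExpr, TMM, quasi-likelihood, slide as covariate in the skin comparison) under Benjamini-Hochberg adjustment at 0.05; DESeq2 1.42.0 was an alternative. Paired kinds were compared with exact sign-flip permutation tests on log2(CPM + 10). The text names the members, the pathway list, Pitx1 and the 3 genes most like each member, besides genes that lead a cluster, which serve only to identify it. Members and lists were chosen with earlier results of these data known. The fit was also run on simulated data with raised and lowered genes in balance and no slide effect, which cannot test the choice of scaling. Promoter sequences and gene positions are from RefSeq; 1 table entry was missing and proteins were not used here. Other receptors and ligands of this family on the panel are not reported here. Alternatives covered scaling, filters, cluster number, quality score, nuclear transcripts, pseudocount and leaving out each section.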

Additional observations from a re-analysis of the deposited data

Results flagged for a closer look

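Erbb3 over all cells of buccal section 6 was 5635 CPM, and its gap to the next of the 7 buccal sections was large against the whole range of the group (Dixon's criterion at 95%); 16 groups were examined, of which chance flags about 1 in 20. That section held 2607 glandular-like cells with 8302 CPM of Erbb3, and their part in the value was 72.1% of its Erbb3 transcripts.

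In differentiated-like keratinocytes the rise of Tgfa in PITX1+ sections differed between slides, by -1.72 (log2, male minus female; edgeR adjusted p = 0.0426). With TMM scaling, the fold was 2.04 on the female slide alone and 0.27 on the male slide alone, where the Control arm is 1 section. In CPM, Tgfa in these cells was 1293 to 1638 in Control and 1620 to 2897 in PITX1+ sections. Library size in place of TMM moved the median gene of this kind by -0.63 (log2). The slide test was run with TMM only. The differentiated-like cells were of different clusters on the slides, as the cluster led by Flg and Hrnr reached 50 cells in PITX1+ sections 1 and 2 on the female slide and in no other unwounded skin section; its part was not tested. The Pitx1 level of the sections assigned to PITX1+ also differed between the slides, and its part was not tested.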

How the results depend on the processing

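Estimates within 1 SE of 0 were given no direction. Over all results of the members, 1156 alternative values kept their side of the threshold, 48 lost it, 16 gained it and 5 changed sign. No paired analysis was possible because the labels carry no replicate number that sections share between groups; the slide, which Control and PITX1+ sections share, was a covariate of the main comparison, and its removal is given next.

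In PITX1+ against Control, dropping the slide covariate took Areg to 1.85 over all cells and 2.20 in keratinocyte-like cells, and Tgfa to 1.37 and 1.35, all past the threshold no longer (edgeR adjusted p = 0.217, 0.0513, 0.133 and 0.0648). On the male slide alone Areg over all cells was 3.39, and Tgfa was 1.71 over all cells and 1.09 in keratinocyte-like cells, values with no test because the Control arm is 1 section. Leaving out each section gave 1.85 to 2.76 for Areg and 1.35 to 1.67 for Tgfa over all cells, where the call was lost for Areg without Control section 2 or 3 or PITX1+ section 1, and for Tgfa without Control section 1 or 2. In keratinocyte-like cells the range was 2.20 to 2.63 for Areg, with every call kept, and 1.21 to 1.71 for Tgfa, lost without Control section 1 or 2 (edgeR adjusted p = 0.0694 and 0.0731).

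In buccal against Control over all cells, Erbb3 passed with DESeq2 (1.35) and without buccal section 3, and Tgfa without that section; the leave-one-out ranges were 1.06 to 1.57 and 0.69 to 1.22. In keratinocyte-like cells, library size gave Egfr 0.12, Erbb3 0.13, Tgfa 0.033 and Areg -0.72, the sign of Areg turning. Against PITX1+, library size gave Egfr -0.34, Erbb3 -0.20 and Tgfa -1.22, transcripts of any quality score gave Egfr 0.49, and leaving out each section gave 0.50 to 0.98 for Egfr, lost without PITX1+ section 1, 2 or 3, and 0.65 to 1.11 for Erbb3, lost without PITX1+ section 1.

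Between differentiated-like and basal-like cells, transcripts over the nucleus alone gave Erbb3 0.45, and transcripts per cell gave Erbb3 0.83 and Egfr -0.039. Near ligand-bearing cells, Erbb3 passed on an unadjusted p at 25 µm (0.26) and within clusters (0.37). The split within clusters was not planned, and its p was the smallest possible. Areg did not pass at 100 µm (0.32) or within clusters (0.38), nor Tgfa at 100 µm (1.04). At 100 µm 3 sections remained and the smallest exact sign-flip p was 0.25. The causes were not tested. Depth limits Areg most, with 18 keratinocyte transcripts in Control section 3.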
